A study of Mus musculus with 2 samples.

Results

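The genes described here encode the working parts of the lysosome: its hydrolases, its membrane proteins, the cofactors its enzymes need, 1 transcription factor of the compartment, and the vacuolar proton pump (V-ATPase) that acidifies it. They were chosen by symbol, as 23 named genes plus every gene whose symbol starts with Atp6v0 or Atp6v1 (23 genes, 2 of them also named), which gave 44 of the 32285 genes in the deposited matrices. The rule itself reads no measured value, although it was drawn up with earlier results of these data known. One of the 44, Atp6v1fnb, was taken in by its symbol as a neighbour of Atp6v1f and is not known as a pump subunit.

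The study set lungs inflamed by lipopolysaccharide (LPS, a component of bacterial outer membranes) beside lungs that received miconazole (MCZ, an antifungal of the azole class) on top of LPS. Both groups were male ICR mice of 6 to 8 weeks, ICR being an outbred stock. Each group gave 1 single-cell RNA library, LPS and LPS_MCZ, made from the pooled left lower lobes of all its mice, so there was no replicate and no group without LPS, and a difference between the conditions cannot be told apart from one between the pools. Miconazole was injected intraperitoneally at 0.2 mg/kg per the sample's own label, while the protocol text gives 1 mg/kg. The sources used here give no LPS dose, timing or number of mice.

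Lysosomes break down proteins, lipids and glycans that reach them by endocytosis, phagocytosis and autophagy. The cathepsins cleave proteins, the glycosidases trim sugars from glycolipids and glycoproteins, and prosaposin is cut into saposins that present lipids to the enzymes. The V-ATPase couples ATP hydrolysis in its cytosolic V1 sector to proton transport through its membrane V0 sector, and several of its subunits have alternative isoform genes whose use differs between tissues. Alveolar macrophages, which clear surfactant and inhaled particles, are rich in lysosomes. Many lysosomal genes carry a short E-box, the CLEAR element, to which the transcription factor TFEB binds.

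Promoter letters are shown because the choice by symbol did not use them and they were more frequent among these genes than among all genes, though most of the matched genes lacked them. RefSeq promoter windows (GRCm38.p6) were found for 37 of the 44 genes, and the 250 bases before each start were searched for TCACGTG on either strand. The letters were present in 8 of the 37 genes (21.6%), against 3.58% of 27025 genes with a window. The shorter E-box CACGTG, which lies inside TCACGTG and reads the same on both strands, was present in 9 of the 37 (24.3%) and in 6.86% of all. Among the genes outside the pump 6 of 20 held TCACGTG, and among the pump genes 2 of 17. A match describes letters and not binding. The window of Lamp1, which held the most CACGTG (4, where Ctsd, Gla, Mcoln1 and Atp6v0b each held 2), is given at chr8:13158911-13159160 on the plus strand, with TCACGTG or its reverse complement in capitals:
Lamp1: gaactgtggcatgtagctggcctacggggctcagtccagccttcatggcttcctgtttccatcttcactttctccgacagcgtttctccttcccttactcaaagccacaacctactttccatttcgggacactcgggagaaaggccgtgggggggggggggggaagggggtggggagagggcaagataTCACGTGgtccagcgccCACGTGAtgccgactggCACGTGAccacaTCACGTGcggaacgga

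Its 4 E-boxes began 61, 45, 28 and 15 bases before the start. The other genes with TCACGTG are compared below by the E-box nearest the start, CACGTG in capitals, in the direction of each gene and with up to 10 bases on either side:
Ctsa: agcaaactgtCACGTGatgcag
Ctsd: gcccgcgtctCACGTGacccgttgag
Gla: agatctcggtCACGTGagcaactctc
Glb1: gcttctgagtCACGTGgcctacagag
Mcoln1: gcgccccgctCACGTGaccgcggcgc
Atp6v0b: gtcggcgcatCACGTGcgccggtcag
Atp6v1a: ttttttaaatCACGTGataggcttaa

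These began 12 (Ctsa), 98 (Ctsd), 194 (Gla), 48 (Glb1), 45 (Mcoln1), 18 (Atp6v0b) and 131 (Atp6v1a) bases before the start. Their places were chr2:164833751-164833772 and chr9:114401020-114401045 for Ctsa and Glb1, and chr8:3500464-3500489 for Mcoln1, all on the plus strand. Ctsd lay at chr7:142387910-142387935, Gla at chrX:134601184-134601209, Atp6v0b at chr4:117887332-117887357 and Atp6v1a at chr16:44139375-44139400, all on the minus strand. Starts are those of the RefSeq windows, and for Ctsa the downstream of its 2 windows. The GENCODE gene models of Ctsa, Ctsd, Mcoln1 and Atp6v1a begin further upstream, so that these 4 sites lie inside them. Ctsl was the ninth gene with CACGTG, 236 bases before its start and outside a TCACGTG. The windows of Psap, Acp5, Ctsk, Cd63 and Atp6v1e1, which recur in the comparisons, held no CACGTG.

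The LPS library held 12577 cell barcodes and 90597705 UMIs (unique molecular identifiers, which count RNA molecules), and the LPS_MCZ library 8500 and 68467793. After filtering, 12074 and 8314 cells formed 29 clusters, made without these 44 genes among the variable genes, and none of the 44 is in a marker list. Of the clusters, 27 were named from marker lists, as "-like" cells, and 16 classes with at least 20 cells in each library were compared. Neutrophil-like cells were 62.5% and 68.7% of kept cells. The libraries shared 243 barcodes, of which 171 in LPS and 139 in LPS_MCZ fell in 2 unnamed clusters of few UMIs. The automatic doublet call marked 2 and 0 cells against expected shares of 9.66% and 6.65%, so doublets were not removed by it. A level below is a gene's share of a class's UMIs, scaled to 1000000 (CPM). Since this 3′ method counts a molecule once whatever its length, levels of different genes were set side by side without a length correction. A log2 ratio is LPS_MCZ over LPS with 1 CPM added to each level, and a gene was counted where a class held at least 50 of its UMIs over both libraries. A ratio past 0.5 (1.414-fold) in either direction is called higher or lower. Intervals are exact 95% intervals of the ratio without the added CPM, so at low counts a ratio can fall outside its own interval; they cover counting error only, not mice or libraries.

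The genes were most abundant in alveolar macrophage-like cells. Together they made up 1.57% of the UMIs of that class in LPS and 1.81% in LPS_MCZ, 0.970% and 1.01% in classical monocyte-like cells, 0.408% and 0.455% in neutrophil-like cells, and 0.227% and 0.256% in T cell-like cells. Of the 38 genes with at least 50 UMIs over the compared classes in each library, 20 had their highest level in alveolar macrophage-like cells in both libraries, where 5.04% of 13342 genes did. The 20 were Ctsa, Ctsd, Ctsk, Ctss, Lamp1, Hexa, Gusb, Mcoln1, Lipa, Cd68, Psap, Acp5 and 8 pump genes. The 8 were Atp6v0d2, Atp6v0b and Atp6v0e of V0 and Atp6v1a, Atp6v1c1, Atp6v1d, Atp6v1e1 and Atp6v1f of V1. The 6 genes not counted were Atp6v0a4, Atp6v1b1, Atp6v1c2, Atp6v1e2, Atp6v1fnb and Atp6v1g3.

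The order of levels differed from gene to gene. Ctsd, the aspartyl protease cathepsin D, stood at 1572 and 2664 CPM in alveolar macrophage-like cells (LPS, then LPS_MCZ), with platelet-like cells next at 476 and 502 CPM. S100a8 and S100a9, neutrophil transcripts, took 14.1% and 14.98% of the UMIs of that platelet-like class, against 17.96% and 16.3% in neutrophil-like cells, where Ctsd was at 296 and 445 CPM. Psap, the prosaposin gene, stood at 1798 and 2621 CPM in alveolar macrophage-like cells and at 1231 and 1124 CPM in classical monocyte-like cells, the next class. The gap between the first and the second class was wider for Ctsd than for Psap in both libraries. Ctsk, the collagen-cleaving cathepsin K, was at 207 and 313 CPM in alveolar macrophage-like cells and at 87.3 and 98.3 CPM in fibroblast-like cells, and the median of the 16 classes was 1.30 and 1.95 CPM. Lipa, the acid lipase that frees cholesterol from its esters, was at 300 and 371 CPM in alveolar macrophage-like cells, and at 87.6 and 67.5 CPM in nonclassical monocyte-like cells, again the next class.

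Several of the genes peaked elsewhere. Ctsl (cathepsin L) was highest in fibroblast-like cells, at 1105 and 938 CPM, as was Cd63, a tetraspanin of late endosomes, at 999 and 959 CPM. Grn, which encodes progranulin, was highest in interstitial macrophage-like cells at 679 and 611 CPM. Glb1, the lysosomal beta-galactosidase, was highest in gamma delta 17 T cell-like cells at 43.3 and 88.7 CPM, in 64 and 30 cells. Lamp2, a main glycoprotein of the lysosomal membrane, was highest in neutrophil-like cells in LPS at 490 CPM, and second there in LPS_MCZ at 404 CPM. For Ctsb and Ctsz, both cysteine cathepsins, the first place passed from alveolar macrophage-like cells in LPS (1175 and 1247 CPM) to interstitial macrophage-like cells in LPS_MCZ (1828 and 1174 CPM), a class of 48 and 35 cells. Tfeb itself was spread out, with a class median of 19.9 CPM in LPS and 23.1 CPM in LPS_MCZ.

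**Figure D1:**
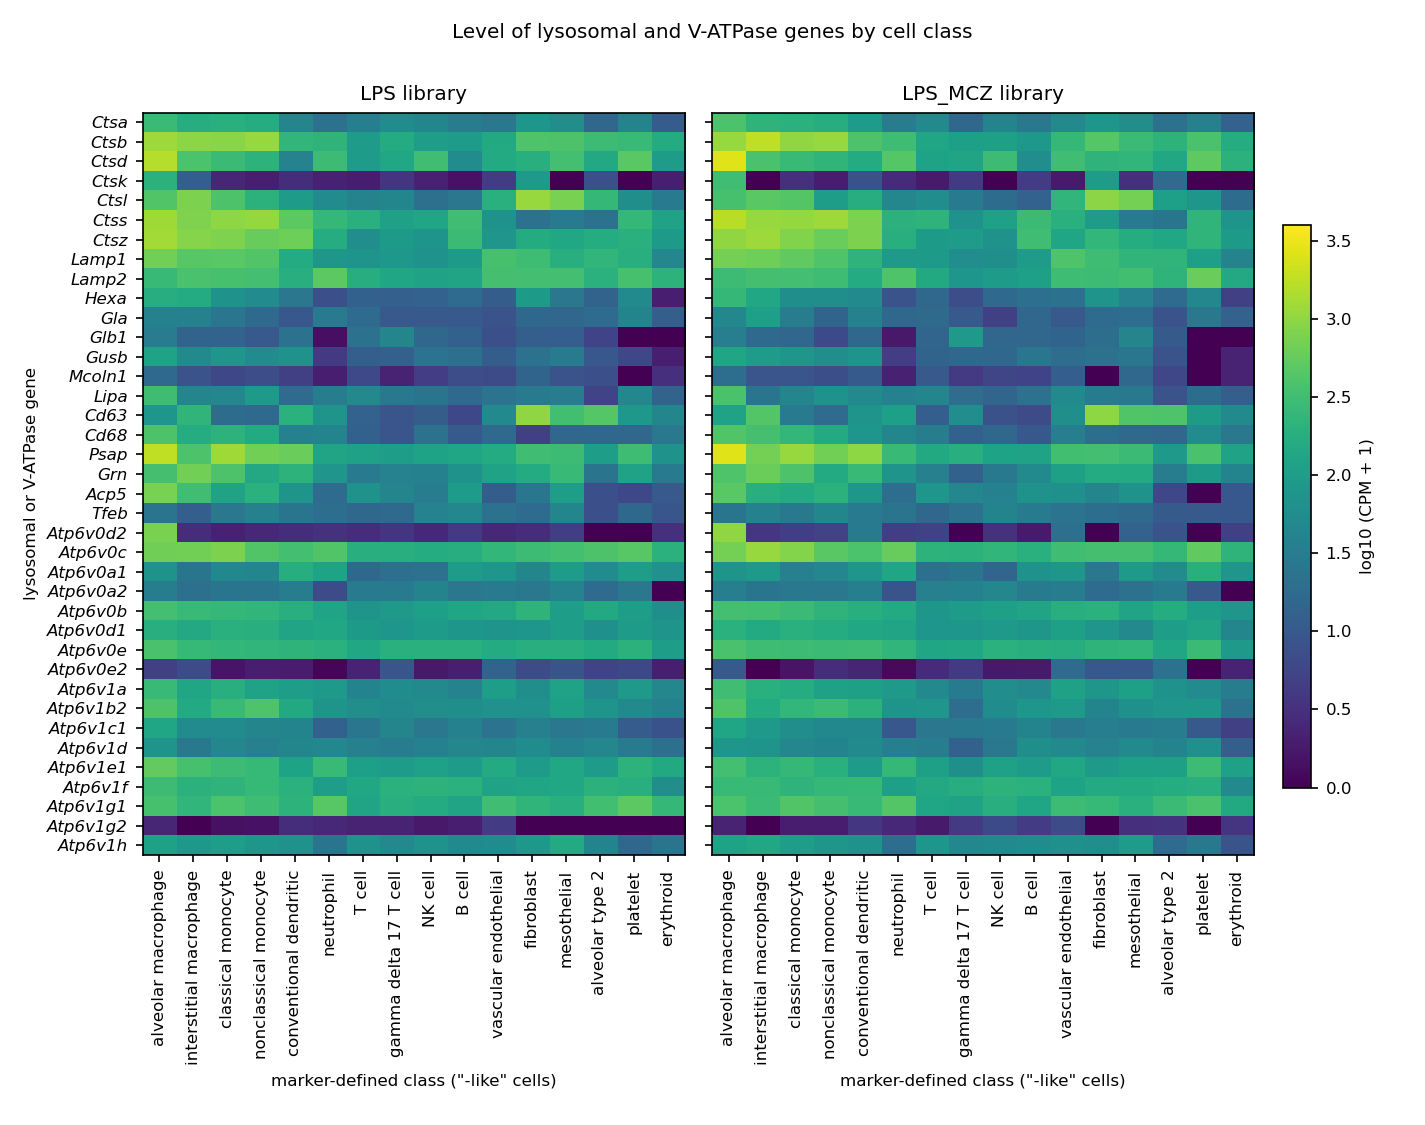
Level of the counted lysosomal and V-ATPase genes (rows) in 16 marker-defined classes (columns) of the LPS library (left) and the LPS_MCZ library (right), as log10 of CPM plus 1, each cell of the map being 1 class sum of 1 library. The alveolar macrophage column is brightest for 20 of 38 genes in both libraries, and Atp6v0d2 is bright in that column alone.

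The pump's subunits were not used alike across classes. Subunit d of the V0 sector has a widely used gene, Atp6v0d1, and Atp6v0d2, known from osteoclasts and macrophages. In alveolar macrophage-like cells Atp6v0d2 stood at 744 and 991 CPM, and the next class held 3.66 CPM in LPS (mesothelial-like) and 30.01 CPM in LPS_MCZ (dendritic-like). It made up 80.5% of subunit d UMIs in alveolar macrophage-like cells in LPS (exact Clopper-Pearson 95% interval 79.6 to 81.4, 6985 UMIs) and 83.3% in LPS_MCZ (82.4 to 84.1, 7510 UMIs). In classical monocyte-like cells it made up 0.595% and 1.88%, and in interstitial macrophage-like cells 1.22% and 1.67%, of 82 and 60 UMIs. Atp6v0d2 is also among the leading genes of cluster 19, 1 of the 2 alveolar macrophage-like clusters, though it was kept out of the clustering. In LPS_MCZ it reached 17.2% in conventional dendritic-like cells and 14.9% in vascular endothelial-like cells, but all 22 of its UMIs in the former came from 2 cells and all 23 in the latter from 3 cells.

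The large transmembrane subunit a of V0 differed as well. Its genes are Atp6v0a1, Atp6v0a2, Atp6v0a4 and Tcirg1, of which the last encodes the a3 form and lies outside the symbol rule. Neutrophil-like cells used Atp6v0a1 for 88.9% of subunit a UMIs in LPS (88.1 to 89.6) and 86.5% in LPS_MCZ (85.6 to 87.4). In alveolar macrophage-like cells Tcirg1 took 60.1% and 57.8%, and Atp6v0a1 27.1% and 28.8%. Tcirg1 also led in classical monocyte-like cells, with 51.4% and 55.5%. In T cell-like cells Atp6v0a2 led, at 59.3% and 50.6% of 295 and 172 UMIs. Atp6v0a4, a form known from kidney, had 0 and 1 UMIs in alveolar macrophage-like cells and was highest in mesothelial-like cells, at 40.2 and 31.5 CPM.

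For the other subunits with alternative genes, 1 gene took nearly all UMIs. Atp6v1b2 held all 2980 and 2576 subunit B UMIs of alveolar macrophage-like cells, and Atp6v1b1, known from intercalated and other acid-secreting cells, had 0. Atp6v0e held 99.0% and 97.6% of subunit e UMIs there, Atp6v1c1 993 of 994 and all 812 subunit C UMIs, and Atp6v1g1 99.6% in each library.

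**Figure D2:**
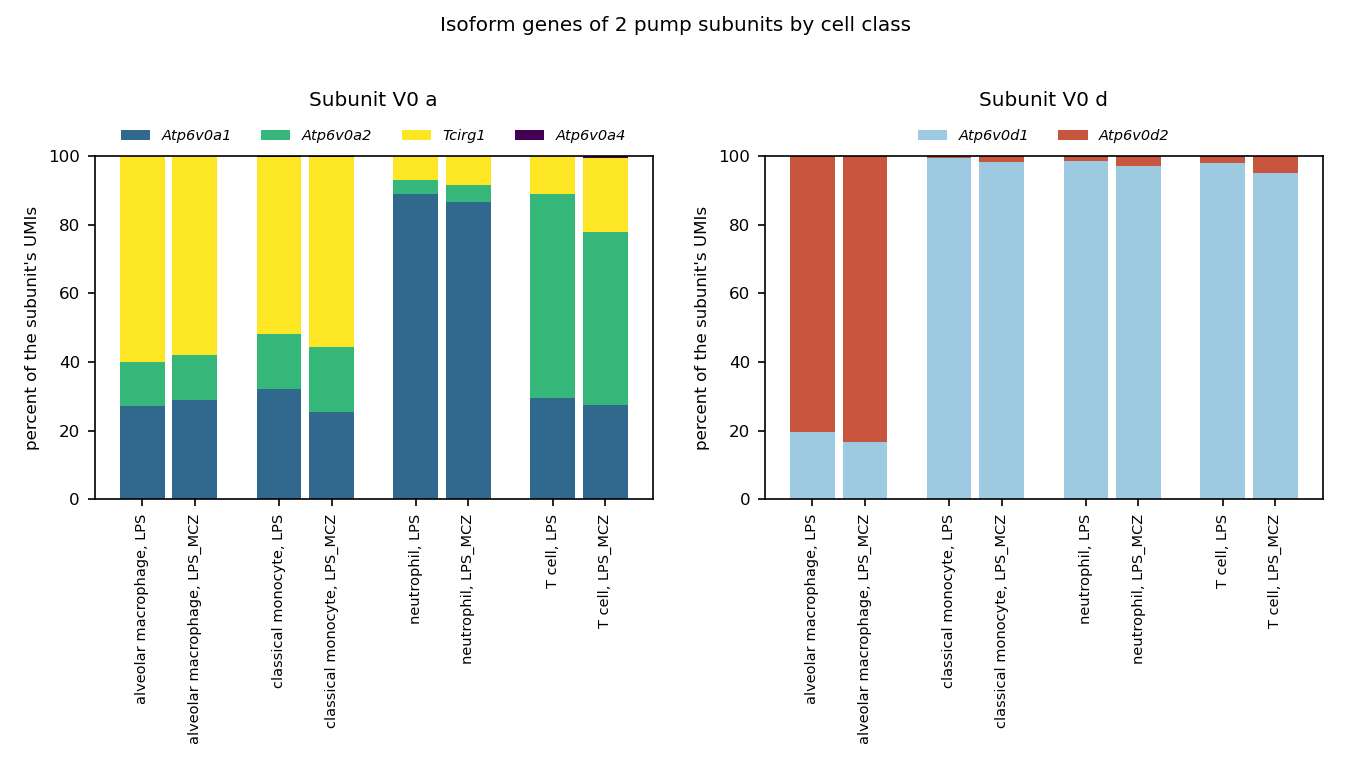
Share of the UMIs of subunit a (left) and subunit d (right) of the V0 sector held by each isoform gene, in percent, in 4 classes of each library; each bar is 1 class of 1 library. Atp6v0d2 fills 80.5% and 83.3% of the subunit d bars of alveolar macrophage-like cells, and Atp6v0a1 88.9% and 86.5% of the subunit a bars of neutrophil-like cells.

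In alveolar macrophage-like cells (369 in LPS, 269 in LPS_MCZ) Ctsd, Psap, Ctsk and Cd63 were higher in LPS_MCZ, and Acp5 and the pump subunit Atp6v1e1 lower, while most other pump genes kept close to their LPS level. The class holds 2 clusters in unequal shares, described further on, and of these 6 genes Atp6v1e1 alone was past the threshold within both. Of the 37 genes counted, 29 had a ratio above 0, a count without the share of all genes above 0 in the class beside it. The number higher was 5, where 11.7% of all 9745 genes counted were higher, and the number lower 2, where 6.07% were. The share of the counted genes past the threshold was thus near the background in both directions. Their median ratio was 0.08, beside 0.02 for all genes. The class held 7563138 UMIs in LPS and 6311781 in LPS_MCZ. Summed by role, the cathepsins stood at 6110 and 7454 CPM, the glycosidases at 364 and 461, the membrane proteins at 1438 and 1536, the cofactors Psap and Grn at 2142 and 3022, Lipa and Acp5 at 1048 and 841, and the pump at 4586 and 4730. The 7 genes not counted in the class had at most 11 UMIs in a library.

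Ctsd, on chromosome 7 (142375911 to 142388038, minus strand), had 11887 and 16817 UMIs, a ratio of 0.76 (0.73 to 0.80). Its 2664 CPM in LPS_MCZ made it the most abundant of the 44 genes in that library's alveolar macrophage-like cells, ahead of Psap. Ctsk stood at 0.59 (0.50 to 0.69). Among the other cathepsins, Ctsa, a carboxypeptidase that also protects other lysosomal enzymes, stood at 0.42 (0.34 to 0.51), and Ctss, the cathepsin of antigen presentation, at 0.42 (0.38 to 0.46). Ctsb was at -0.07, Ctsl at -0.25 and Ctsz at -0.31 (-0.35 to -0.26). The 7 cathepsins therefore did not share a direction: 4 were above 0 and 3 below it.

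Psap, on chromosome 10 (60277627 to 60302597, plus strand), had 13601 and 16544 UMIs, a ratio of 0.54 (0.51 to 0.58). Grn, whose product binds prosaposin and cathepsin D, was at 344 and 401 CPM, a ratio of 0.22 (0.14 to 0.30). All 4 glycosidases lay above 0 and none past the threshold. Hexa, a subunit of the hexosaminidase that degrades GM2 ganglioside, was nearest at 0.48 (0.38 to 0.59), from 175 to 246 CPM. Gla, the alpha-galactosidase that cleaves globotriaosylceramide, was at 0.33 (0.10 to 0.58), Gusb (beta-glucuronidase) at 0.17 and Glb1 at 0.06 (-0.21 to 0.33).

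Of the membrane proteins, Cd63 had 591 and 743 UMIs, 78.1 and 118 CPM, a ratio of 0.585 (0.43 to 0.75). Lamp1 and Lamp2, the main glycoproteins of the lysosomal membrane, were at 0.04 (-0.02 to 0.10) and 0.06 (-0.03 to 0.16), and Cd68, a relative of theirs in macrophages, at 0.09. Mcoln1, a cation channel that releases lysosomal calcium, had 122 and 118 UMIs and a ratio of 0.20 (-0.16 to 0.59), an interval too wide to place it on either side of 0. Tfeb had 178 and 154 UMIs and a ratio of 0.05 (-0.27 to 0.37).

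Acp5, the tartrate-resistant acid phosphatase, on chromosome 9 (22126727 to 22135711, minus strand), went the other way. Its UMIs numbered 5659 and 2968, its levels were 748 and 470 CPM, a ratio of -0.67 (-0.73 to -0.61). With each cell thinned to 2000 UMIs, Acp5 was seen in 66.9% of 350 LPS cells and 44.9% of 267 LPS_MCZ cells, and 19 and 2 shallower cells were left out; without thinning the shares were 93.5% and 85.1%. In neutrophil-like cells the thinned shares were 2.54% and 2.97%, and median depths were 5649.5 and 5812 UMIs there against 21279 and 22880 in the macrophages. The part of free RNA in the Acp5 ratio was not tested. Lipa was at 0.31 (0.22 to 0.39).

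Among the 16 pump genes counted, 12 were above 0, again without the share of all genes beside it, and the median was 0.06. Ratios of the main subunits of the V1 ring lay near 0: Atp6v1a was at 0.16 and Atp6v1b2 at 0.05 (-0.03 to 0.13). The proteolipid gene Atp6v0c, which forms the rotor, was at 0.07. Atp6v0d2 was at 0.41 (0.36 to 0.47), short of the threshold, and its share of cells with a UMI after thinning was 72.0% and 84.3%, against 0.570% and 0.644% in neutrophil-like cells. The other subunit d gene, Atp6v0d1, was at 0.14 (0.03 to 0.26). Atp6v0e2 was higher, at 1.05 (0.57 to 1.93), on 29 and 57 UMIs. Atp6v1e1, whose product is part of the peripheral stalks that hold V1 to V0, had the lowest ratio of the 37 genes, with 4122 and 2120 UMIs, 545 and 336 CPM and a ratio of -0.70 (-0.77 to -0.62). It lies on chromosome 6 (120794305 to 120822793, minus strand). Among the pump's subunits it stood apart in size, since the next lowest, Atp6v1f, Atp6v1c1 and Atp6v0b, were at -0.11, -0.03 and -0.03.

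**Figure D3:**
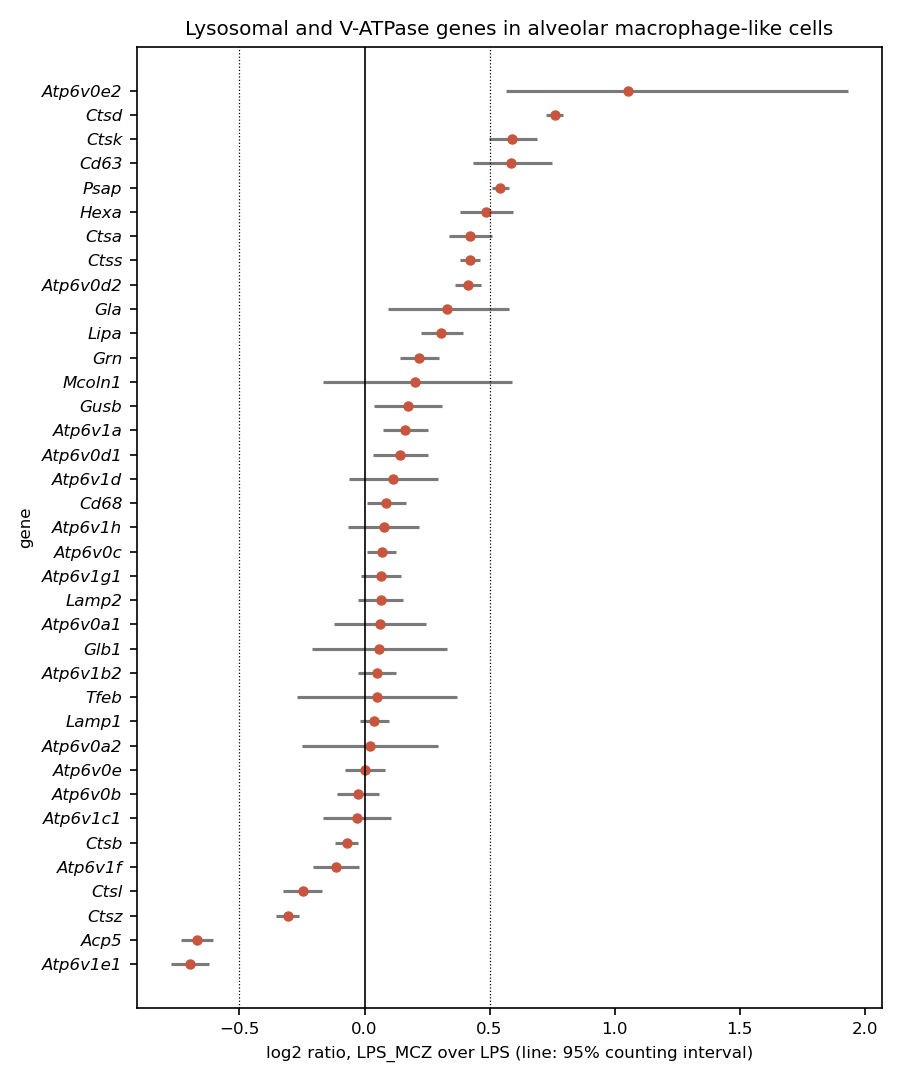
Log2 ratio, LPS_MCZ over LPS, of the 37 counted genes in alveolar macrophage-like cells, 1 point a gene with its 95% counting interval as a line; dotted lines mark 0.5 and -0.5. The 5 points from Psap at 0.54 to Atp6v0e2 at 1.05 lie past the upper line and 2, Acp5 at -0.67 and Atp6v1e1 at -0.70, past the lower one.

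Transcripts that mark other cells also differed between the libraries in this class, in both directions. The 13 neutrophil markers summed to 6845 CPM in alveolar macrophage-like cells in LPS and 9181 CPM in LPS_MCZ, and all 13 were higher in LPS_MCZ. S100a8 and S100a9, the most abundant of them, took 0.603% and 0.804% of the class's UMIs, and Gm42418, which overlaps ribosomal RNA, 0.893% and 2.83%. The 7 erythroid markers summed to 703 and 350 CPM, and 1 of them was higher in LPS_MCZ. The 7 classical monocyte markers summed to 678 and 755 CPM, and 2 of them were higher in LPS_MCZ. The 10 alveolar macrophage markers summed to 7505 and 8757 CPM, and 8 of them were higher in LPS_MCZ. The part of all these transcripts in the ratios was not tested.

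The class held 2 clusters in very different shares, and these had different levels of several genes. Cluster 9, led by Slc7a2, Lpl and Marco, made up 82.1% and 35.7% of the class (303 and 96 cells). Cluster 19, led by Kcnip4, Plet1 and Mrc1, made up 17.9% and 64.3% (66 and 173 cells). Ctsd was at 1207 CPM in cluster 9 and 3549 CPM in cluster 19 in LPS, and at 1641 and 3367 CPM in LPS_MCZ, so cluster 19 was the higher one in each library. Psap followed the same order, with 1584 and 2963 CPM in LPS and 2025 and 3031 CPM in LPS_MCZ. Acp5 had the opposite order, at 839 and 253 CPM in LPS and 870 and 196 CPM in LPS_MCZ. The Acp5 ratio of cluster 19 over cluster 9 was -1.73 in LPS and -2.15 in LPS_MCZ. Of 36 genes counted, 4 were higher in cluster 19 by more than 0.5 in both libraries (9.2% of all genes) and 3 lower (8.14%). The higher ones were Ctsd, Psap, Hexa and Mcoln1, the lower ones Acp5, Ctsz and Glb1, and no pump gene was among them.

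Within a cluster the 2 libraries were closer for Ctsd, Psap and Acp5. In cluster 19 the ratio of LPS_MCZ over LPS was -0.08 (-0.13 to -0.02) for Ctsd, 0.03 (-0.02 to 0.09) for Psap and -0.37 (-0.57 to -0.17) for Acp5. In cluster 9 it was 0.44 (0.39 to 0.50), 0.35 (0.31 to 0.40) and 0.05 (-0.02 to 0.12). None of these 3 genes was past the threshold in either cluster. In cluster 9, 2 of 36 genes were higher (6.61% of all genes) and 1 lower (5.53%). In cluster 19 none of 36 was higher (12.7%) and 1 was lower (5.64%). The median of the genes was 0.15 in cluster 9, where 33 of 36 were above 0, beside 0.004 and 50.5% for all genes. In cluster 19 it was -0.07, with 11 of 36 above 0, beside 0.05 and 56.0% for all genes. The difference between the clusters in these ratios was not tested.

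Ctsk and Cd63 were the 2 genes higher within cluster 9. Ctsk was at 208 and 409 CPM there, a ratio of 0.97 (0.86 to 1.09), and at 202 and 247 CPM in cluster 19. Cd63 was at 77.0 and 160 CPM in cluster 9, a ratio of 1.04 (0.86 to 1.25), and at 84.1 and 88.7 CPM in cluster 19. Few cells carried much of both. In cluster 9 of LPS_MCZ, the 5 cells with the most Ctsk held 411 of 1052 UMIs and the 5 with the most Cd63 133 of 411, against 289 of 1331 and 87 of 492 in LPS. The cluster held 96 cells in LPS_MCZ and 303 in LPS, so 5 cells were a larger part of it in LPS_MCZ. After thinning, the share of alveolar macrophage-like cells with a Cd63 UMI was 13.7% (10.3 to 17.8) in LPS and 14.98% (10.9 to 19.8) in LPS_MCZ, against 1.59% and 3.27% in T cell-like cells.

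Atp6v1e1 was the 1 gene lower within both clusters. It was at 559 and 380 CPM in cluster 9, a ratio of -0.55 (-0.66 to -0.45), and at 470 and 305 CPM in cluster 19, a ratio of -0.62 (-0.77 to -0.47). It was also seen in fewer cells after thinning, 64.9% in LPS and 48.3% in LPS_MCZ, while T cell-like cells gave 17.2% and 18.9%. The 5 cells with the most Atp6v1e1 held 201 of 4122 UMIs in LPS and 150 of 2120 in LPS_MCZ. Elsewhere its ratio was -0.74 (-1.14 to -0.36) in interstitial macrophage-like cells, on 193 and 80 UMIs, -0.43 (-0.67 to -0.20) in nonclassical monocyte-like cells, -0.23 (-0.30 to -0.16) in classical monocyte-like cells and -0.07 (-0.11 to -0.03) in neutrophil-like cells.

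**Figure D4:**
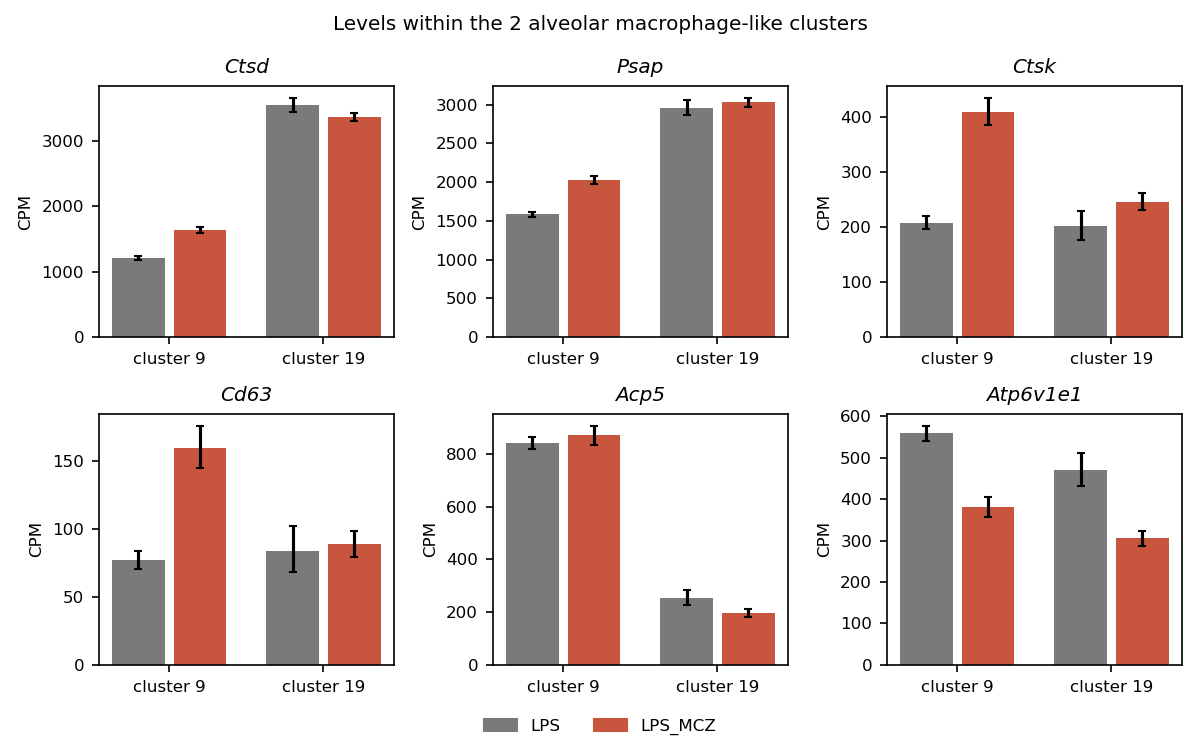
Levels, in CPM, of 6 genes in the 2 alveolar macrophage-like clusters, grey bars for LPS and red bars for LPS_MCZ, with exact 95% Poisson counting intervals; each bar is 1 cluster sum of 1 library. Ctsd, Psap and Acp5 differ more between the clusters than between the libraries, Ctsk and Cd63 between the libraries in cluster 9, and Atp6v1e1 between the libraries in both (559 and 380 CPM, 470 and 305 CPM).

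Neutrophil-like cells (7544 in LPS, 5715 in LPS_MCZ) had less of most of these genes, and among them Psap differed most between the libraries. Of 36 genes counted, 5 were higher (12.7% of all 10626 genes) and 1 lower (4.37%), so neither count stood far from the background. The median ratio was 0.10, beside 0.12 for all genes. Psap had 5916 and 10199 UMIs, 126 and 274 CPM, a ratio of 1.11 (1.07 to 1.17). After thinning, 20.8% of LPS cells and 39.9% of LPS_MCZ cells held a Psap UMI, and without thinning 47.0% and 71.9%. In T cell-like cells (median depths of 5986 and 7300 UMIs) the thinned Psap shares were 18.2% and 21.5%. In erythroid-like cells (medians of 6406 and 6133 UMIs) the thinned Psap shares were 14.1% and 14.2%. Ctsd was at 296 and 445 CPM, a ratio of 0.59 (0.56 to 0.62), Ctsa at 0.56, Cd63 at 0.53 and Atp6v0d2 at 0.51, the last on 105 and 135 UMIs.

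Psap was higher in LPS_MCZ in each of the 9 neutrophil-like clusters. The clusters ran from 110 to 158 CPM in LPS and from 213 to 315 CPM in LPS_MCZ, and these ranges did not overlap. How many of all genes had ranges without overlap was not counted. Cluster ratios ran from 0.67 to 1.37. Of the 44 genes 27 were counted in all 9 clusters. Of 3420 genes counted in all 9 clusters, 1.14% were past 0.5 in every one, and Psap was the 1 gene of the set that was. The classes of the libraries were made of different clusters, with clusters 0, 2, 4 and 1 holding most LPS cells and clusters 6, 3 and 8 most LPS_MCZ cells. Cells of 1 library are not replicates, so the 9 clusters repeat 1 comparison. The 10 alveolar macrophage markers summed to 29.8 CPM in neutrophil-like cells in LPS and 44.4 CPM in LPS_MCZ, and all 10 were higher in LPS_MCZ.

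Ctsd, Ctsb, Atp6v0c and Atp6v0b were also above 0 in all 9 clusters, where 16.2% of genes were, but their ranges overlapped between the libraries. Ctsd spanned 146 to 528 CPM across the LPS clusters and 239 to 655 CPM across the LPS_MCZ clusters. Ctss and Lamp2 were below 0 in all 9, at class ratios of -0.30 and -0.28. The share of all genes below 0 in all 9 was not counted. Gla was the gene lower in the class, with 1364 and 581 UMIs, 29.0 and 15.6 CPM, a ratio of -0.86 (-1.04 to -0.76). It was past the threshold in 7 of the 9 clusters, and in clusters 1 and 7 its levels were 11.5 and 11.6 CPM, and 5.14 and 5.13 CPM, the second value of cluster 1 resting on 4 UMIs. In alveolar macrophage-like and classical monocyte-like cells Gla was above 0, both at 0.33. Whether the classes differ was not tested.

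**Figure D5:**
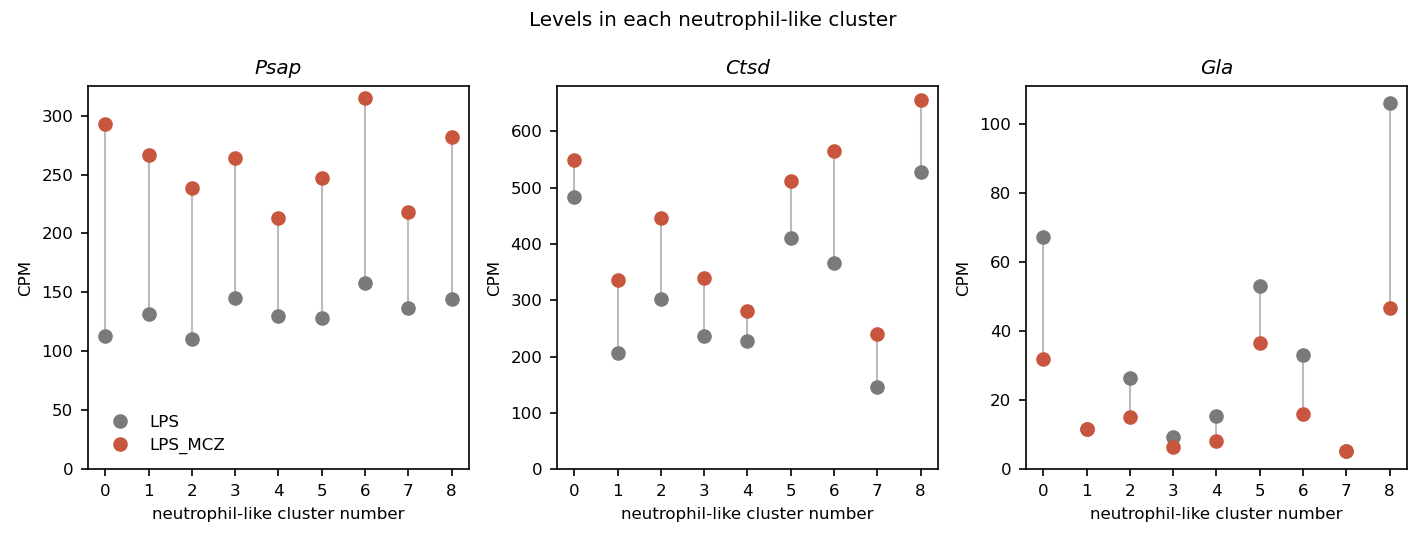
Levels, in CPM, of Psap, Ctsd and Gla in each of the 9 neutrophil-like clusters, grey points for LPS and red points for LPS_MCZ, joined by a line within a cluster. The Psap points of LPS_MCZ (213 to 315 CPM) lie above all those of LPS (110 to 158 CPM), while the Ctsd and Gla ranges overlap.

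Classical monocyte-like cells (887 and 645) showed few differences. Of 35 genes counted, 3 were higher (4.19% of all genes) and none was lower (4.11%). The 3 were Cd63 at 17.5 and 29.9 CPM, a ratio of 0.74 (0.54 to 1.00), Mcoln1 at 0.56 on 74 and 97 UMIs, and Atp6v0d2 at 1.11 on 17 and 45 UMIs. Psap, at 1231 and 1124 CPM, was at -0.13 (-0.16 to -0.10), and Ctsd at -0.04 (-0.10 to 0.03). Acp5 was at 116 and 156 CPM, a ratio of 0.43 (0.34 to 0.52), the opposite sign to that in alveolar macrophage-like cells. The sums of all 44 genes were 9702 and 10059 CPM in this class, and those of the pump genes 3082 and 3181 CPM.

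The lymphoid, stromal and dendritic classes had fewer UMIs, and their backgrounds were wider. In T cell-like cells (850 and 295) 6 of 34 genes were higher (6.82% of all genes) and 1 lower (4.42%). These were 4 cathepsins, Ctsa, Ctsb, Ctsl and Ctsz, at 0.51 to 0.65, with Mcoln1 at 0.70 and Cd68, a marker of phagocytes, at 1.34 on 69 and 77 UMIs. Glb1 was the lower one, at -0.56 on 122 and 34 UMIs. The alveolar macrophage markers there summed to 23.3 and 51.1 CPM. A few cells carried much of these genes too: the 5 cells with the most held 130 of 329 Ctsb UMIs, 98 of 218 Ctsz UMIs and 42 of 77 Cd68 UMIs in LPS_MCZ, against 116 of 534, 66 of 329 and 30 of 69 in LPS. With 295 cells in LPS_MCZ and 850 in LPS, 5 cells were a larger part of the class in LPS_MCZ. After thinning, the share of T cell-like cells with a Cd68 UMI was 1.32% (0.64 to 2.42) in LPS and 0.73% (0.09 to 2.60) in LPS_MCZ, the opposite order to the CPM, so no order is read from either.

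In vascular endothelial-like cells (245 and 214) 10 of 29 genes were higher (11.1%) and none lower (8.1%). Acp5 had 13 and 75 UMIs, a ratio of 2.48 (1.73 to 3.57), Ctss 83 and 229, a ratio of 1.51, and Lipa 28 and 59, a ratio of 1.10. A few cells of LPS_MCZ carried much of this. The 5 cells with the most Acp5 held 62 of the 75 UMIs, and those with the most Ctss 159 of the 229. The 10 alveolar macrophage markers summed to 229 and 563 CPM in the class, and 8 of the 10 were higher in LPS_MCZ. Their part in the ratios was not tested. Without the cells of the highest doublet scores (215 and 200 left), 7 of 26 genes were higher, the largest ratio was 1.04 and Acp5 was no longer counted. In conventional dendritic-like cells (80 and 48) 9 of 30 genes were higher (15.3%) and 2 lower (12%). Ctsd had 40 and 121 UMIs, 93 of the 121 in 5 cells, a ratio of 2.07 (1.58 to 2.66), Lipa was at 1.53 on 18 and 38 UMIs, and the alveolar macrophage markers summed to 228 and 876 CPM. Cd63 was lower there, at 201 and 72.3 CPM, a ratio of -1.46 (-1.94 to -1.03), as was Atp6v0a1 at 175 and 76.4 CPM. Of the Cd63 UMIs of LPS, 117 of 209 came from 5 cells. Without the cells of the highest doublet scores (69 and 48 left) 10 of 30 genes were higher and 2 lower, and the largest ratio was 2.32.

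Interstitial macrophage-like cells, 48 and 35 in number, had 9 of 27 genes higher (27.5%) and 3 lower (14%). Ctsb was at 936 and 1828 CPM, a ratio of 0.97 (0.80 to 1.13), and Psap at 388 and 696 CPM. The 5 cells with the most Ctsb held 168 of 506 UMIs in LPS and 280 of 688 in LPS_MCZ. For Psap they held 74 of 210 and 129 of 262. The 10 alveolar macrophage markers summed to 1548 and 1600 CPM in this class, and 5 of them were higher in LPS_MCZ. Gla was at 37.0 and 106 CPM, on 20 and 40 UMIs, Cd68 at 1.01 and Cd63 at 0.97. Acp5, Ctsl and Atp6v1e1 were the lower ones, at -0.75, -0.70 and -0.74. Without the cells of the highest doublet scores (30 and 29 left) 6 of 25 were higher and 3 lower. In nonclassical monocyte-like cells (221 and 112) none of 31 was higher (8.43%) and 2 were lower (6.23%): Ctsl at 205 and 101 CPM and Atp6v1b2 at 408 and 280 CPM. B cell-like cells (303 and 108) had none of 29 higher (11.7%) and 2 lower (9.07%), Ctsl at -0.96 and Tfeb at -0.58, and Grn was at -0.44. NK cell-like cells (366 and 152) had none of 31 higher (5.61%) and 4 lower (6.92%), led by Lipa at -0.74 and Atp6v0a1 at -0.60, on 18 UMIs each in LPS_MCZ, with Gusb at -0.50.

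The 6 remaining classes held 28 to 150 cells a library and counted 11 to 23 of the genes. Alveolar type 2-like cells had 1 of 17 higher (13.4%) and 2 lower (30.4%), with Ctsl at -1.21, Atp6v0d1 at 0.65 and Atp6v0c at -0.63. Erythroid-like cells had 2 of 19 higher (14.1%), Ctsd at 1.08 and Psap at 0.78, and 6 lower (20.9%), among them Atp6v1b2 at -0.74. S100a8 and S100a9 took 7.55% and 6.42% of the UMIs of erythroid-like cells, and Ctsd and Psap were higher in neutrophil-like cells as well; the part of neutrophil RNA in these ratios was not tested. Fibroblast-like cells had 2 of 23 higher (11.3%) and 1 lower (17.3%), and Ctss led there at 2.18 on 11 and 46 UMIs, with Atp6v1b2 at -0.66 and Ctsz at 0.55. Gamma delta 17 T cell-like cells had 2 of 17 higher (11.9%) and 6 lower (18.8%), with Glb1 at 1.02, Atp6v1a at -0.83 and Lamp2 at -0.79. Mesothelial-like cells had none of 21 higher (13.8%) and 5 lower (19.1%), Atp6v0d1 being at -1.02, Grn at -0.80 and Atp6v1b2 at -0.79. Platelet-like cells had 1 of 11 higher (21.5%), Lamp2 at 0.72, and none lower (18.7%), and Atp6v0e and Atp6v1e1 were at 0.49 and 0.46.

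A further 95 lysosomal genes, listed by function beside the 44, were read in the same classes. In alveolar macrophage-like cells 10 of 86 counted were higher and 1 lower, and their median was 0.15. Over all genes of the class 11.7% were higher and 6.07% lower. Gpnmb, a glycoprotein of macrophage lysosomes, had the largest ratio, 1.32 (1.22 to 1.43), from 147 to 369 CPM, and it was past the threshold in cluster 9 (1.29) and in cluster 19 (0.53). The lower one was Clcn7, the chloride-proton exchanger of the lysosomal membrane, at -0.67, which was at -0.33 and -0.02 in the clusters. Lgmn (legumain, an asparaginyl protease) was at 0.83 and Gm2a, the GM2 activator, at 0.76 in the class. Neither passed within a cluster. In neutrophil-like cells 20 of 88 were higher, where 12.7% of all genes were, and 2 lower, where 4.37% were, with a median of 0.21 beside 0.12. Among the higher ones was Gm2a, a lipid-presenting cofactor as the saposins are, at 1.48 (23.8 and 68.3 CPM). Of the 8 pump subunit and assembly genes outside the symbol rule, none passed the threshold in alveolar macrophage-like cells.

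An unnamed cluster of few UMIs, whose nearest class was alveolar macrophage, was left out of the class. There Ctsd was at 1428 and 1738 CPM, Ctsk at 241 and 530 CPM, Acp5 at 636 and 404 CPM and Atp6v1e1 at 378 and 252 CPM, the same order of the libraries as in the class for all 4.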

How the data were processed

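Single-cell RNA was measured in 2 libraries, 1 per group. The deposited matrices hold raw UMI counts per gene and barcode, made with Cell Ranger 7.0.0 per the file headers; bcl2fastq 2.20 and the mm10 build are named in the submitters' processing notes. Whether intronic reads were counted is not given in the sources used here, and reads of genes that overlap cannot be told apart. No deposited barcode had under 500 UMIs.

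Cells with at least 200 genes, 500 UMIs and at most 20% mitochondrial UMIs were kept. They were clustered with scanpy 1.11.5 (2000 variable genes without the genes studied, 30 components, 15 neighbours, Leiden resolution 1.0). To be named, a cluster had to raise 3 markers of a class by a log2 of 1 above the cluster at the 25th percentile, with 20 CPM added. Clusters with median UMIs under 0.3333 of the library's in both stayed unnamed, unless a marker of the nearest class was among their 10 leading genes. How leading genes were ordered to check the names was settled after the clusters had been seen. Scrublet marked too few doublets to be of use.

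Counts were summed per class and library and given as CPM, and log2 ratios with 1 CPM added were computed without a test, since each group is 1 library. The ratio and interval code was tested on simulated counts. Genes were named by rule: the 23 listed genes by role, genes past 0.5 in alveolar macrophage-like cells, pump isoforms with the 4 highest and 4 lowest pump ratios there, and the 3 largest ratios of each other class; genes named beyond it were chosen after their values were seen. The members and lists were chosen with earlier results of these data known. Promoter windows came from RefSeq. Alternatives numbered 19, of which 2 were added after the data were seen, as were the counts without cells of high doublet scores.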

Additional observations from a re-analysis of the deposited data

Results flagged for a closer look

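Acp5 moved in opposite directions, past the threshold, in 2 of the 5 classes with at least 200 cells in each library. Its log2 ratio was -0.67 in alveolar macrophage-like cells (5659 and 2968 UMIs) and 2.48 in vascular endothelial-like cells (13 and 75 UMIs, 62 of the 75 in 5 cells). Acp5 was past the threshold in neither alveolar macrophage-like cluster, and cluster 9 made up 82.1% of that class in LPS and 35.7% in LPS_MCZ. In vascular endothelial-like cells it was no longer counted without the cells of the highest doublet scores. The alveolar macrophage markers summed to 229 and 563 CPM there. The difference between the 2 classes was not tested.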

How the results depend on the processing

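No paired analysis was possible because each group is 1 library. For alveolar macrophage-like cells the 5 genes higher became 3 with each cell thinned to 2000 UMIs, 2 in cluster 9 alone, 0 in cluster 19 alone, 3 with both clusters weighted equally and 2 with the mean of each cell's CPM. The 2 lower became 1 in cluster 9 alone, in cluster 19 alone and with equal weights. In cluster 19 alone the median log2 ratio of the genes was -0.067 and that of the pump genes -0.073. The log2 ratio of Acp5 turned to 0.051 in cluster 9 alone, and Ctsd to -0.076 in cluster 19 alone. Atp6v1e1 stayed lower, past the threshold, under all 19 alternatives (-0.75 to -0.55). Over the alternatives run for each, the genes highest in alveolar macrophage-like cells numbered 16 to 21, and the medians ran from -0.02 to 0.11 in neutrophil-like and 0.02 to 0.12 in classical monocyte-like cells. With 1 library a group, depth limits only the counting intervals; the spread between mice was not measured.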
